A study of Rattus norvegicus with 4 samples.

Results

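The insulin-like growth factor (IGF) system was followed through 10 genes: the ligands Igf1 and Igf2, the receptors Igf1r and Igf2r, and the binding proteins Igfbp2 to Igfbp7. A probe set, the group of short probes that together report a transcript, was taken for a gene when the array's annotation gave it that 1 symbol and no other. All 10 genes had such a probe set, 23 in all, out of 14217 genes so annotated. The cells were aortic smooth muscle cells from Sprague-Dawley rats, grown for 5 days with 10% serum and then 3 days without serum. Then 2 samples were exposed for 24 hours to 2.5 ng/mL of IL-1b (interleukin-1 beta), a cytokine that drives inflammation, while the other 2 had its vehicle, 0.1% bovine serum albumin (BSA). All 4 samples were therefore serum-starved before treatment. Nothing in the labels says that samples of a group came from separate cultures. The spread behind every p-value is that between 2 samples of a group, shared in part across probe sets, and may be only technical.

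IGF1 and IGF2 are secreted peptides that drive growth and survival of smooth muscle cells through the type 1 IGF receptor, a tyrosine kinase encoded by Igf1r. The receptor encoded by Igf2r has no kinase; it removes IGF2 from the surroundings and carries lysosomal enzymes. Most IGF outside cells is held by the high-affinity binding proteins encoded by Igfbp2 to Igfbp6, which can withhold it from the receptor or deliver it. Igfbp7 encodes a related matrix protein that binds IGF weakly.

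In these cells IL-1b was accompanied by a fall of Igfbp2 to 45.5% of its vehicle mean. One of the 2 Igf1r probe sets rose 1.97-fold, while the brighter one read 1.41-fold higher and missed the threshold. Transcripts of Igf1, Igf2 and Igfbp3 were near the background of the array with and without the cytokine. Igfbp7 and Igf2r were bright in both groups and did not pass. The IL-1b mean of Igfbp7 was 102% of the vehicle mean, and the 2 probe sets of Igf2r gave 94.8% and 74.5%. Among the partners of the receptor, the adaptor gene Sh2b2 rose 8.25-fold, the PI3 kinase subunit gene Pik3r1 rose 4.77-fold, and the receptor inhibitor gene Grb14 fell 2.22-fold.

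The arrays were not alike. Hybridisation controls, bacterial RNA added in fixed amounts, read 3.50 times their vehicle level on IL-1b replicate 1, against 0.954 to 1.04 times on the other 3 arrays. Background was set on each array from 27 dim controls, probe sets for Bacillus transcripts, at their 95th percentile. It was 76.7 intensity units on that array and 18.8 to 29.4 on the others. Probe sets were tested when their mean log2 value was at or above the 40th percentile, which left 18625 probe sets and 10000 genes. All 7 smooth muscle markers were above background on all 4 arrays. Acta2, Tagln, Cnn1, Myh11, Smtn and Lmod1 were lower with IL-1b, and the other one, Des, did not pass. That is 85.7% past the threshold, against 15.3% over all genes tested. The summed level of all 7 was 30735 and 31511 with vehicle and 11659.8 and 8692 with IL-1b. Of 6 endothelial markers with a probe set, 0 were above background on every array and 5 were at or below it on at least 3, with a summed level of 55.8 to 193. The fibroblast markers Dpt and Pdgfra rose and Col14a1 fell, 3 of 5 tested, while the summed level of the 6 with a probe set was 3517 and 3601 with vehicle and 2559 and 3014 with IL-1b. Of 7 leukocyte markers, only Cd14 was above background on all 4 arrays, and 4 were at or below it on at least 3. Their summed level was 673 to 749 with vehicle and 1054 to 1069 with IL-1b. Most of it was Cd14, which read 616 and 578 with vehicle and 796 and 950.4 with IL-1b. Cd14 did not pass (limma adjusted p = 0.072), and 0 of the 2 leukocyte markers tested passed. Without overlap, Csf1r read lower and Cd68 higher with IL-1b, and both were too dim to be tested. No marker read exactly 0, and the part of these markers in the results on IGF genes was not tested. In RNA pooled from many cells, fewer cells of a type and less RNA per cell cannot be told apart.

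Of the 10 genes, 7 were bright enough to be tested and 3 were not. With each gene represented by its brightest probe set, 1 of the 7 was lower with IL-1b, 0 were higher and 6 did not pass an adjusted p of 0.05 in limma. At an unadjusted p under 0.05 there were 3, of which 1 was higher. No share over all genes was taken at the unadjusted threshold, here or for the unadjusted counts given below. Those counts therefore have no background to be set against. Over all genes tested, 15.3% passed the adjusted threshold in either direction, 7.19% higher and 8.13% lower, so a share of 1 in 7 is close to the background. The median log2 fold change of the 7 was -0.01, the same as over all genes tested. Counted by probe set, 2 of 10 passed, against 13.4% of all probe sets tested. Both IL-1b arrays lay on 1 side of both vehicle arrays at 6 of these 10 probe sets, 3 higher and 3 lower, against 58.3% of all probe sets tested. With quantile normalization 3 of the 6 genes then bright enough passed (Igfbp2, Igf1r and Igfbp7), where 2506 of 18625 probe sets passed in all. With each array centred on its median 2 of 7 passed (Igfbp2 and Igfbp5), where 1634 probe sets did. These 2 whole counts are of probe sets, and no share over genes was taken under those settings.

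**Figure D1:**
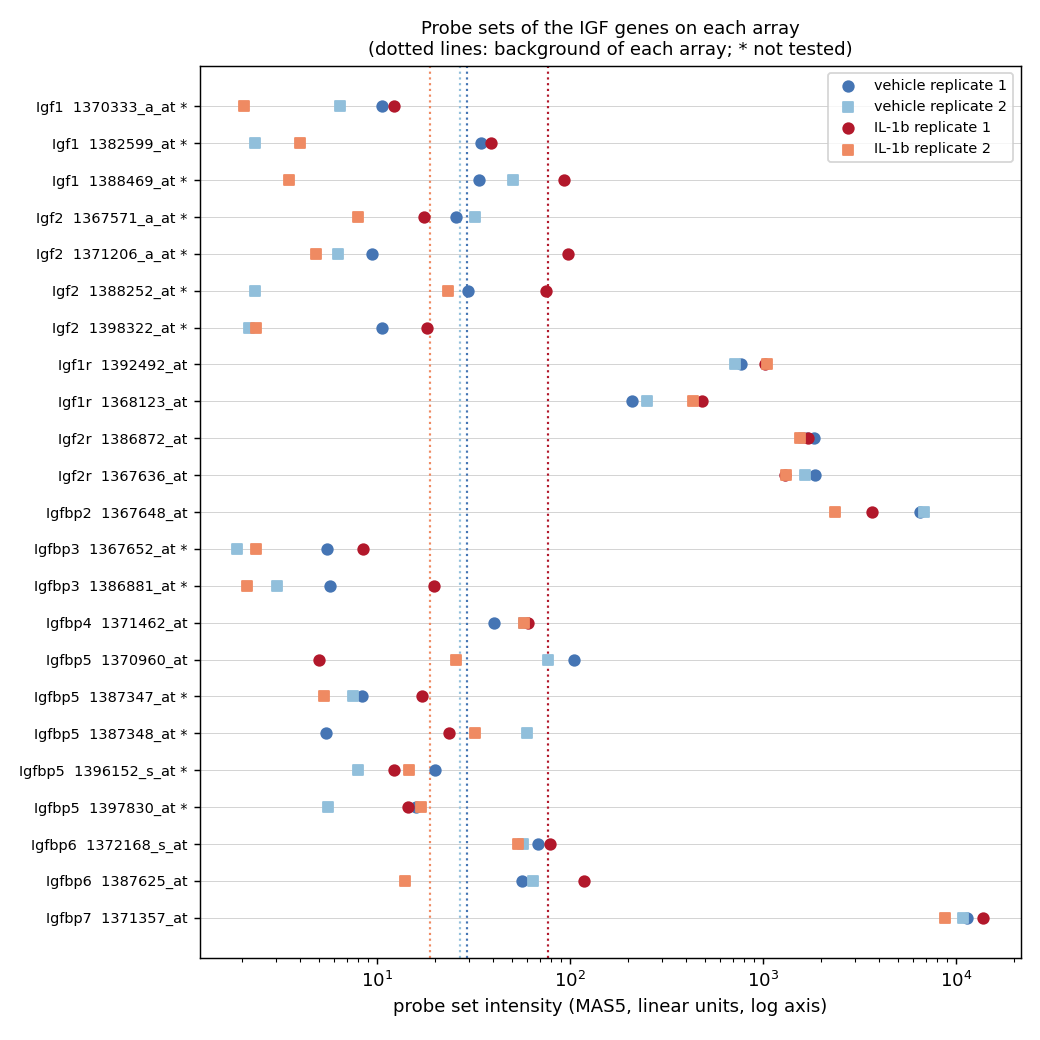
Intensity of all 23 probe sets of the 10 IGF genes on each array, on a log axis, with circles for replicate 1, squares for replicate 2, blue for vehicle and red or orange for IL-1b. Dotted lines are the background of each array. Igf1, Igf2 and Igfbp3 scatter around the background lines, whereas Igfbp7, Igfbp2, Igf2r and Igf1r lie far to the right of them.

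The ligand genes gave little signal. Igf1 had 3 probe sets, of which 1388469_at was the brightest, reading 33.6 and 50.9 with vehicle and 93.1 and 3.51 with IL-1b. Both vehicle arrays and IL-1b replicate 1 were above their own background there, and IL-1b replicate 2 was not, so the IL-1b arrays lay on either side of the vehicle arrays. Probe set 1382599_at read 34.6 and 2.33 with vehicle and 38.9 and 4.0 with IL-1b, and 1370333_a_at stayed at or below 12.2 on every array. In both of these the 2 replicate 1 arrays read higher than the 2 replicate 2 arrays, with no order by treatment.

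Igf2, an imprinted gene that is strongly expressed in the fetus, had 4 probe sets, and none was above background on more than 2 of the 4 arrays. Probe set 1367571_a_at read 25.7 and 32.3 with vehicle and 17.4 and 7.93 with IL-1b, which was the only one without overlap between groups. At 1371206_a_at the values were 9.38 and 6.25 with vehicle and 98.1 and 4.80 with IL-1b. That high value came from IL-1b replicate 1, the array with the high background, and the other IL-1b array was the lowest of the 4. The remaining probe sets, 1388252_at and 1398322_at, read 2.17 to 29.6 with vehicle and 2.37 to 75.3 with IL-1b. With no filter on dim probe sets the 7 probe sets of Igf1 and Igf2 had log2 fold changes between -0.97 and 1.54, with standard errors of 0.73 to 1.09, and 0 of the 7 passed in limma (adjusted p of 0.48 to 0.94), or at an unadjusted p under 0.05.

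Igf1r, the receptor that signals for both ligands, was measured well above background by both of its probe sets. At the brighter, 1392492_at, the intensities were 765 and 712 with vehicle and 1028 and 1053 with IL-1b, or 739 ± 37.4 and 1040.4 ± 17.2 (SD, n = 2). Both IL-1b arrays were above both vehicle arrays, but the log2 fold change of 0.49 ± 0.14 (SE) did not pass (limma adjusted p = 0.066, 95% interval 0.16 to 0.82). At 1368123_at the intensities were 209 and 251 with vehicle and 484 and 432 with IL-1b, again with no overlap. There the log2 fold change of 0.98 ± 0.19 passed (limma adjusted p = 0.018, interval 0.52 to 1.44), from a mean of 230.2 ± 29.5 to 458 ± 37.1 (SD, n = 2). The intervals of the 2 probe sets overlap, and the difference between them was not tested.

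The Igf1r call depends on scale and on single arrays. At 1368123_at it was lost without vehicle replicate 1 (adjusted p = 0.16), without the intensity trend of the variance (0.084) and with each array centred on its median (log2 fold change 0.77, adjusted p = 0.28). That centring shifts the median of all genes by -0.20 on the log2 scale. With IL-1b replicate 1 left out this probe set gave 0.90, and with the other IL-1b array left out 1.06, both past the threshold. At 1392492_at the log2 fold change was 0.29 with median centring (adjusted p = 0.74) and 0.56 with quantile normalization (0.041). With the first or the second IL-1b array left out it was 0.51 and 0.47, and both passed (adjusted p = 4.9e-04 and 9.5e-04). In those fits the spread comes from the vehicle pair alone, so the lone IL-1b array is assumed to vary as little.

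Igf2r, the clearance receptor, gave intensities of 1837 and 1625 with vehicle and 1717 and 1563 with IL-1b at its brightest probe set, 1386872_at. The arrays of the groups interleave, and the log2 fold change was -0.08 ± 0.15 (SE, limma adjusted p = 0.78), with an interval of -0.42 to 0.27. Its other probe set, 1367636_at, read 1860.1 and 1646 with vehicle and 1297 and 1314 with IL-1b. The groups did not overlap there, with a log2 fold change of -0.42 ± 0.14 that missed the threshold (adjusted p = 0.11). Without IL-1b replicate 1 or 2 the log2 fold changes at 1367636_at were -0.41 and -0.43.

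**Figure D2:**
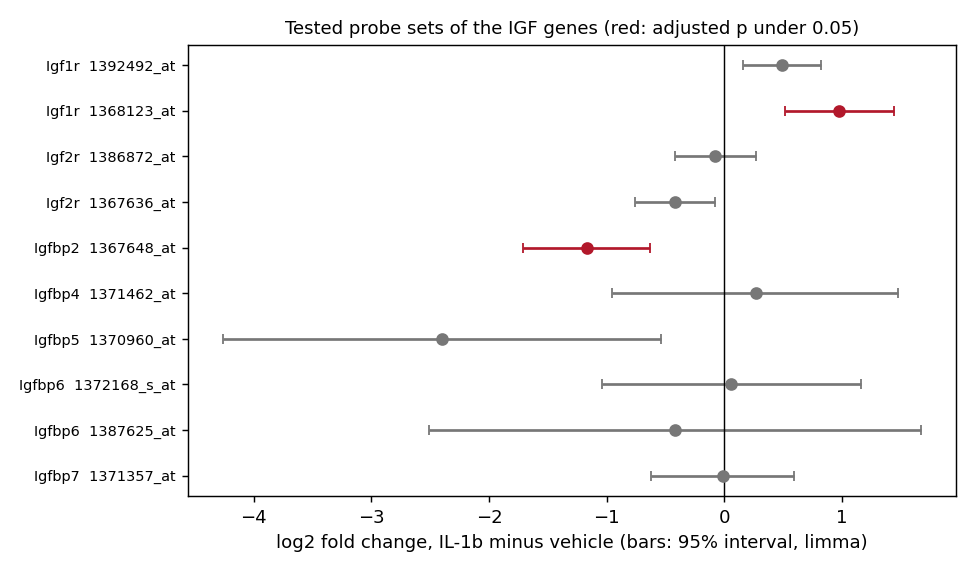
Log2 fold change, IL-1b minus vehicle, of the 10 tested probe sets of the IGF genes, with 95% intervals from limma and red for an adjusted p under 0.05. Igfbp2 at -1.17 and Igf1r at 0.98 are the red points, and the intervals of Igfbp5 and of 1 Igfbp6 probe set are the widest.

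Igfbp2 encodes a secreted binding protein that carries an RGD sequence for binding integrins. It was the 1 gene of the 10 that passed at its brightest, and only, probe set (1367648_at). Its intensities were 6491 and 6826 with vehicle and 3679.6 and 2373 with IL-1b. Both IL-1b arrays were below both vehicle arrays, and the lower value was on IL-1b replicate 2, which read 64.5% of replicate 1. The means were 6658 ± 237 and 3026 ± 924 (SD, n = 2), a log2 fold change of -1.17 ± 0.23 (SE, limma adjusted p = 0.017, 95% interval -1.71 to -0.63). The log2 fold change was -1.49 with IL-1b replicate 1 left out and -0.85 with the other IL-1b array left out. Without vehicle replicate 2 the log2 fold change was -1.13 and the adjusted p was 0.068, and without the intensity trend the adjusted p was 0.11. With each array centred on its median the change was -1.37 (adjusted p = 8.0e-04).

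Igfbp2 and Igfbp5 are neighbouring coding genes on rat chromosome 9, transcribed towards each other, in the RefSeq annotation of assembly GRCr8. The 250 bases before their start sites are shown because these are the 2 binding protein genes with the lowest fold changes, of which that of Igfbp5 did not pass. The Igfbp2 window lies at chr9:81864561-81864810 on the plus strand and the Igfbp5 window at chr9:81914188-81914437 on the minus strand, both written 5′ to 3′. Capitals mark matches to any of 6 motifs searched on both strands.
Igfbp2: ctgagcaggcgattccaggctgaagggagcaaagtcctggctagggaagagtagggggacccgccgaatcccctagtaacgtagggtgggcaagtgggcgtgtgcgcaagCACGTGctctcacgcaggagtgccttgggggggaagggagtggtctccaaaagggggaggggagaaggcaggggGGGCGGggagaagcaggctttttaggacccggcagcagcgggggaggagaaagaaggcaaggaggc
Igfbp5: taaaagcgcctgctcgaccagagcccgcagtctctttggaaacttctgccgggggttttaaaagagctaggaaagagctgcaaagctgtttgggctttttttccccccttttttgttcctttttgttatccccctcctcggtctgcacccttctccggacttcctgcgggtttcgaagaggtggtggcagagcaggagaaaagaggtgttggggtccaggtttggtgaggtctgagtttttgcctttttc

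The motifs were the GC box GGGCGG, the NF-kB motif GGGNNNTTCC, the AP-1 motif TGANTCA, the C/EBP motif TTGCNNAA, the TATA box TATAAA and the E-box CACGTG. The Igfbp2 window held 1 E-box, at -140 to -135, and 1 GC box, at -66 to -61, counted from the start site. The Igfbp5 window held none of the 6. G and C made up 64.0% of the Igfbp2 window and 51.6% of the Igfbp5 window, and the median over all 33465 windows was 51.2%. Over all windows of this length 30.5% held the GC box, 5.59% the E-box, 4.53% the NF-kB motif, 6.34% the AP-1 motif, 9.22% the C/EBP motif and 12.9% the TATA box. The 10 genes had 11 windows, since Igf2 has 2. A GC box was found for 5 of the 10 genes, an E-box for 3, and a C/EBP motif and a TATA box for 1 each. The NF-kB and AP-1 motifs, those of factors that IL-1 activates, had no match in these 11 windows, which says only that those letters are not there.

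Igfbp5 encodes the most conserved of the binding proteins, which attaches to extracellular matrix. Its brightest probe set, 1370960_at, read 105 and 77.1 with vehicle and 5.03 and 25.7 with IL-1b. Both IL-1b arrays were lower, but IL-1b replicate 1 was below its own background of 76.7, so that value sets only an upper limit. The log2 fold change of -2.40 ± 0.78 (SE) did not pass (limma adjusted p = 0.097, 95% interval -4.26 to -0.54). Without that array it was -1.61 and passed (adjusted p = 0.0081), with the spread taken from the vehicle pair. It also passed with the replicate number as a block (adjusted p = 0.043) and with median centring (-2.60, adjusted p = 0.046), fits that use the value below background as measured. Its other 4 probe sets were too dim to be tested. They read 5.41 to 59.6 with vehicle and 5.30 to 32.0 with IL-1b, with overlapping groups in each, and had log2 fold changes of 0.04 to 0.45 with no filter. The low IL-1b readings of Igfbp5 therefore rest on 1 of its 5 probe sets. That probe set, 1370960_at, was bright enough to be tested only through its vehicle readings, so its test is no separate support for a fall. It was too dim to be tested with no offset, with quantile normalization, with the filter at the 60th percentile and without either vehicle array.

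Igfbp3 encodes the main carrier of IGF in blood. It was not detectable above background on any array by either probe set. The values were 5.49 and 1.89 with vehicle and 8.42 and 2.35 with IL-1b at 1367652_at, and 5.70 and 3.02 against 19.8 and 2.13 at 1386881_at. IL-1b replicate 1 gave the highest value at both and IL-1b replicate 2 the lowest or second lowest, so the groups overlapped.

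Igfbp4, whose product restrains IGF until the protease PAPP-A cleaves it, read 40.3 and 57.6 with vehicle and 60.6 and 57.9 with IL-1b at its 1 probe set. The reading on IL-1b replicate 1 was below that array's background, and the log2 fold change of 0.27 ± 0.51 (SE, limma adjusted p = 0.77) had an interval of -0.95 to 1.48. Igfbp6, whose product prefers IGF2, read 68.2 and 56.9 with vehicle and 78.4 and 54.0 with IL-1b at 1372168_s_at. The groups overlapped, with a log2 fold change of 0.06 ± 0.46 and an interval of -1.04 to 1.16, and the sign was opposite with quantile normalization (-0.18) and median centring (-0.15). At its other probe set, 1387625_at, the IL-1b arrays read 118 and 14.0, on either side of the vehicle values of 56.6 and 64.0. There the log2 fold change was -0.42 (adjusted p = 0.80). The reading of 14.0, on IL-1b replicate 2, was below that array's background of 18.8 and sets only an upper limit. At this signal a change of Igfbp4 or Igfbp6 within those intervals was not detectable.

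Igfbp7, whose product is secreted into the vessel wall matrix, was bright on every array. It read 11361 and 10902 with vehicle and 13829.7 and 8806 with IL-1b, so the IL-1b arrays lay on either side of the vehicle arrays. The means were 11132 ± 325 and 11318 ± 3552 (SD, n = 2), and the log2 fold change was -0.01 ± 0.26 (SE, limma adjusted p = 0.98, 95% interval -0.62 to 0.59). Leaving out the first IL-1b array gave -0.34 and leaving out the second gave 0.31. With quantile normalization it was -0.33 (adjusted p = 0.027). The sign at Igfbp7 thus turns on which IL-1b array is used.

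**Figure D3:**
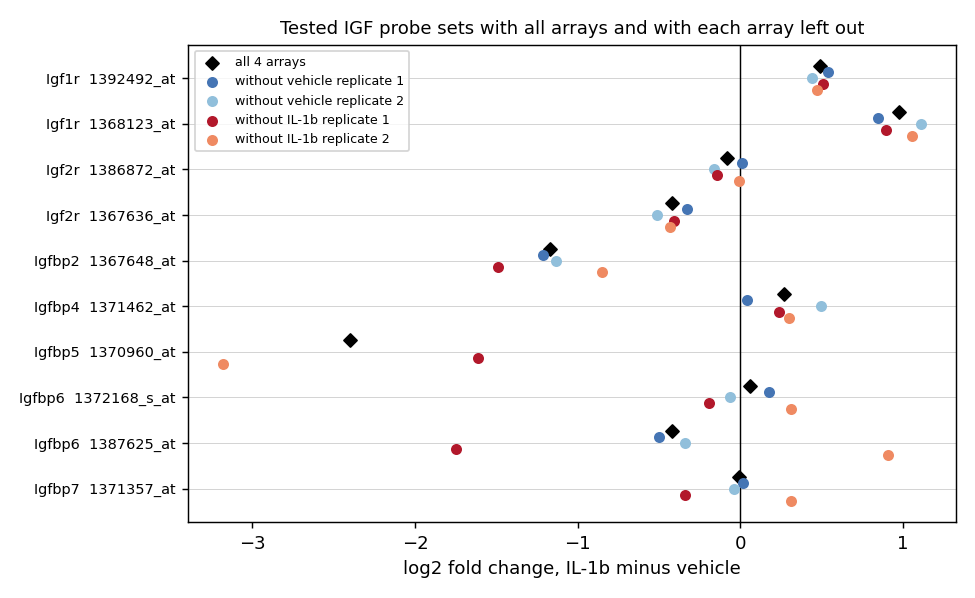
Log2 fold change, IL-1b minus vehicle, of the 10 tested probe sets with all 4 arrays (black diamonds) and with each array left out in turn (circles). Igfbp2 and both Igf1r probe sets keep their sign throughout, whereas Igfbp7 moves from -0.34 to 0.31; Igfbp5 was too dim to be tested without either vehicle array.

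The 4 arrays allow a search for genes with values like those of Igfbp2. By the distance between log2 values, each taken relative to the vehicle mean over 4 arrays, the nearest 3 genes were Jazf1, Pxmp2 and Serf1, at distances of 0.07, 0.10 and 0.12. Their log2 fold changes were -1.19, -1.15 and -1.15, each with the lowest value on IL-1b replicate 2. Both likenesses follow from how the 3 genes were chosen and are not a separate result. Pxmp2 and Serf1 passed (limma adjusted p = 0.048 and 0.025), and Jazf1 did not (0.12). Jazf1 read 62.4 on IL-1b replicate 1, below that array's background of 76.7, so its distance and its place in the order are uncertain.

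Other genes of the pathway were taken from a list of 64, of which 54 had a probe set and 47 were tested. Of these, 5 were higher with IL-1b, 5 were lower and 37 did not pass, which is 21.3% past the threshold against 15.3% over all genes tested. Their median log2 fold change was 0.14, against -0.01 over all genes tested. The 15.3% is also the background for the counts by role given below. Without the intensity trend 3 of the 47 genes passed, where 963 of 18625 probe sets did. The latter is a share of probe sets, and none over genes was taken there.

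Among carriers and related receptors, Lrp1, a large endocytic receptor that also binds IGFBP3, was the 1 of 2 tested that rose, from 1884 and 2234 with vehicle to 3029 and 3324 with IL-1b. Its log2 fold change of 0.63 ± 0.16 (SE, limma adjusted p = 0.043) missed the threshold without vehicle replicate 1 (0.58) or 2 (0.27) and with median centring (0.51). The insulin receptor gene Insr had a log2 fold change of 0.62 ± 0.54 at its brightest probe set (adjusted p = 0.50). Its other probe set had the opposite sign, at -1.19 ± 0.96 (adjusted p = 0.47). Igfbp1, a binding protein gene made mainly in liver, read 2.71 to 4.78 on the 4 arrays and was not tested, and neither was Igfals, which encodes the subunit that stabilises IGF in blood. Of the genes for proteases that cut binding proteins and for their inhibitors, 0 of 2 tested passed in limma, and 1 had an unadjusted p under 0.05. Htra1, a serine protease gene, had a log2 fold change of -0.44 ± 0.17 (adjusted p = 0.15). Stc1, which encodes a stanniocalcin that inhibits PAPP-A, had one of -0.30 ± 0.16 at its brightest probe set (adjusted p = 0.29). Other probe sets of Stc1 gave 0.70 ± 0.41, higher with IL-1b without overlap (adjusted p = 0.32), and 0.04 ± 0.17 (0.89). Pappa2 and Stc2 were too dim to be tested. Igf2bp2, which encodes a protein that binds Igf2 transcripts, read 190.5 and 237 with vehicle and 413 and 333 with IL-1b, a log2 fold change of 0.79 that missed the threshold (limma adjusted p = 0.060). H19, the noncoding neighbour of Igf2 in its imprinted region, read 54.2 and 38.1 with vehicle and 166 and 32.2 with IL-1b, with overlapping groups, so 0 of the 2 genes tested here passed, and 1 had an unadjusted p under 0.05.

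All 10 genes for receptor adaptors and phosphatases were tested, and 2 rose, 1 fell and 7 did not pass. That is 30.0% past the threshold, against 15.3% over all genes tested. Sh2b2 encodes APS, an adaptor that is recruited to activated insulin and IGF receptors. It read 55.0 and 64.0 with vehicle and 524 and 535 with IL-1b, with all 4 values above background and the IL-1b pair within a few percent of each other. Its log2 fold change was 3.04 ± 0.24 (SE, limma adjusted p = 3.5e-04), and 2.94 to 3.15 when each array was left out in turn. Grb14, which encodes an adaptor that binds the activated receptor kinase and inhibits it, fell from 4376 and 4514 to 2057 and 1950.5, a log2 fold change of -1.15 ± 0.14 (adjusted p = 0.0027). It passed with any 1 array left out, and its adjusted p was 0.050 without the intensity trend. Grb2, the link to Ras, rose at its brightest probe set by 0.69 ± 0.17 (adjusted p = 0.041), while its other 2 probe sets gave 0.05 and -0.81 and did not pass. Without vehicle replicate 1 or 2 the Grb2 call was lost (adjusted p = 0.21 and 0.31), as it was with median centring (0.52). Irs1 and Irs2, the docking proteins that carry the signal from the receptor to PI3 kinase, had log2 fold changes of 0.02 ± 0.75 and 0.32 ± 0.30. For Irs1, with intensities of 21.5 to 59.8, the interval of -1.75 to 1.79 leaves the direction undetermined.

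In the PI3 kinase, Akt and FoxO group, 1 of 20 tested genes rose, 1 fell and 18 did not pass. That is 10.0% past the threshold, below the 15.3% over all genes tested. Pik3r1 encodes p85 alpha, the regulatory subunit that docks PI3 kinase on the IRS proteins. It read 83.2 and 109 with vehicle and 474 and 476 with IL-1b, a log2 fold change of 2.26 ± 0.23 (SE, limma adjusted p = 0.0011). The groups were far apart, and the value was 2.07 to 2.44 with each array left out. Foxo1, which encodes a transcription factor that Akt keeps out of the nucleus, fell from 475 and 569 to 253 and 184. Its log2 fold change was -1.25 ± 0.22 (adjusted p = 0.012), and it missed the threshold without vehicle replicate 2 (0.069) and without the intensity trend (0.077). The catalytic subunit gene Pik3ca, with a log2 fold change of -0.06 (interval -0.42 to 0.31), and the kinase genes Akt1 and Akt2, with -0.23 and -0.01, did not pass. Other probe sets of the kinases read higher with IL-1b with no overlap between groups, at 0.27 for Akt1 (adjusted p = 0.39) and at 0.81 and 0.86 for Akt2 (0.072 and 0.069), and did not pass either. Of the Ras and ERK cascade 3 of 8 listed genes were tested, Nras, Map2k1 and Map2k2, and 0 passed in limma or at an unadjusted p under 0.05.

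**Figure D4:**
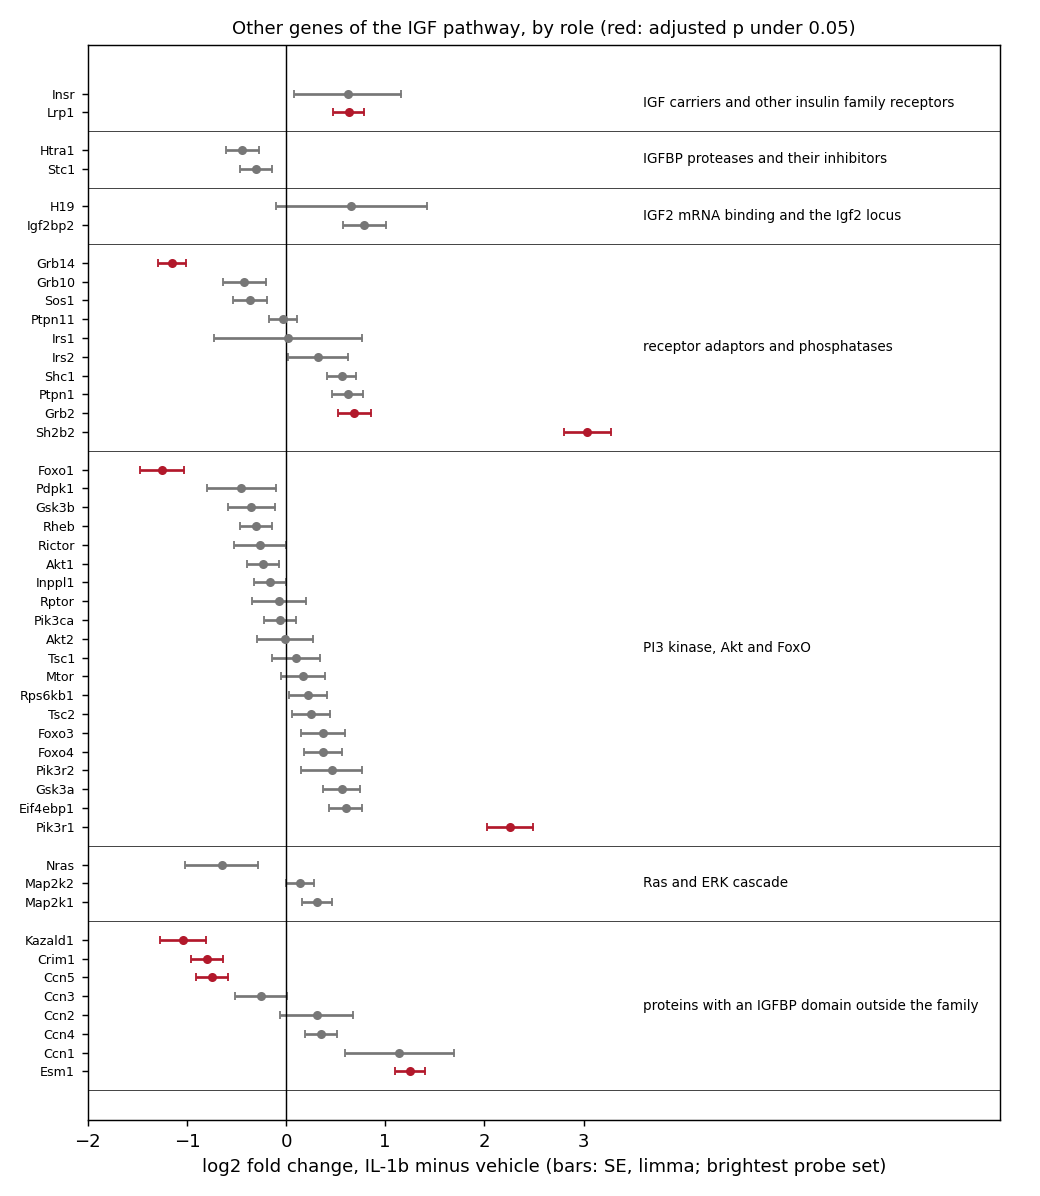
Log2 fold change, IL-1b minus vehicle, with standard errors, of the 47 tested genes of the wider IGF pathway, grouped by role, with red for an adjusted p under 0.05. Sh2b2 at 3.04 and Pik3r1 at 2.26 lie farthest to the right, and Foxo1 at -1.25 and Grb14 at -1.15 farthest to the left.

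The amino-terminal domain that defines the binding proteins also occurs in secreted proteins outside the family. Of 8 such genes, all tested, 1 rose, 3 fell and 4 did not pass. That is 50.0% of a short list, against 15.3% over all genes tested. Esm1, which encodes the proteoglycan endocan, rose from 1809 and 1654 to 3980.4 and 4249 (log2 fold change 1.25 ± 0.15 SE, limma adjusted p = 0.0020). Kazald1 fell from 261 and 289 to 137 and 124 (-1.04 ± 0.23, adjusted p = 0.027), Crim1, a membrane protein gene, by -0.80 ± 0.16 (0.021), and Ccn5, which encodes a matricellular protein known to restrain smooth muscle growth, by -0.75 ± 0.16 (0.025). The calls of Kazald1, Crim1 and Ccn5 were each lost without vehicle replicate 1 or 2 (adjusted p of 0.12 to 0.42), whereas Esm1 passed with any 1 array left out. Ccn1, Ccn2, Ccn3 and Ccn4 did not pass. For Ccn2 the IL-1b arrays read 25289 and 11513, on either side of the vehicle values of 14034 and 13569.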

How the data were processed

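Each of 4 samples was hybridised to its own single-colour Affymetrix rat array. Each deposited number is the linear intensity of a probe set; the submitters' processing notes name MAS5, with a version not given in the sources used here. Trimmed by 2% at either end, every array averaged 250.0, so nothing more was normalized. Values went to log2 after adding 5.49 units (their 10th percentile), which understates changes of dim genes. Left out were 57 control probe sets and all with a mean log2 value under 5.37. Group means were fitted with limma 3.58.1 (lmFit, and eBayes with an intensity trend) in R 4.3.3, on the 18625 probe sets left, with Benjamini-Hochberg adjustment over all of them. In that fit the spread of each probe set (2 degrees of freedom) is combined with that of probe sets of like intensity (4.91 degrees of freedom). The number of arrays limits the precision, and no detection calls were used.

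Of the other probe sets, 20826 had 1 symbol, 436 several and 9780 none listed. All 10 IGF symbols matched a current gene by its identifier. Promoter sequences come from RefSeq (GRCr8).

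The members, lists and tests were chosen with earlier results of these data known. Named were all 10 members with every probe set, up to 4 called genes with the largest change of each list, 9 chosen pathway genes where measured, and the 3 genes nearest to each called member. Others were named after their values were seen. The procedure was tested on simulated data. The 15 alternatives varied offset, normalization, filter, variance prior, replicate block, arrays, threshold and probe set choice.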

Additional observations from a re-analysis of the deposited data

How the results depend on the processing

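The 4 arrays limit every result, and changes of dim genes cannot be seen at this background. The 2503 probe sets that passed became 963 without the intensity trend, 1222 at an adjusted p under 0.01 and 1634 with each array centred on its median, where 34.4% of calls were higher, against 47.1%. Leaving out an array gave 1426 (vehicle replicate 2) to 8794 (IL-1b replicate 2). The 1 of 7 IGF genes that passed became 0 of 7 in limma without the intensity trend and at an adjusted p under 0.01. At an unadjusted p under 0.05 these were 2 and 3. There were 2 of 7 with median centring, with the replicate block and with the mean of all probe sets of a gene. With the filter at the 60th percentile 2 of 4 passed, where 2364 of 12417 probe sets did. With quantile normalization 3 of 6 passed, where 2506 of 18625 probe sets did. With an array left out, the spread comes from the pair of the other group alone. Counts of IGF genes and of other pathway genes called in those fits are therefore not given. The 10 other pathway genes became 3 without the intensity trend and 4 at an adjusted p under 0.01, and 4 to 33 with an array left out. Signs reversed for Igfbp6 with quantile normalization (-0.18), median centring (-0.15) and the mean of its probe sets (-0.18), and with single arrays left out for Igf2r (range -0.16 to 0.01), Igfbp6 (-0.19 to 0.91, and -0.06 without vehicle replicate 2; the 0.91 is from 1387625_at, the brighter probe set once IL-1b replicate 2 is left out, where 1372168_s_at gave 0.31) and Igfbp7 (-0.34 to 0.31, and 0.02 without vehicle replicate 1). The causes were not tested. Igfbp2 kept its sign under every alternative, and its adjusted p was 0.11 without the trend and 0.068 without vehicle replicate 2. Replicate numbers are not said to pair samples. Deviations of the replicate 1 arrays from their group means correlated at r = 0.0912. The replicate block gave 3276 of 18625 probe sets and 14 of 47 other pathway genes.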
